A study of Mus musculus with 7 samples.

Results

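Genes of the MS4A family were examined in neutrophils sorted from the liver 24 h after acetaminophen-induced liver injury (AILI). The members are Ms4a4a, Ms4a4c, Ms4a6b, Ms4a6c, Ms4a6d and Ms4a7, chosen by symbol, and 5 of these 6 were found among the 16047 genes of the deposited table; Ms4a4a was not analysed here. Male C57BL/6J mice of 8 to 12 weeks were fasted for 12 h and given 300 mg/kg of acetaminophen (APAP). They received either PBS (4 mice, numbered 5 to 8) or the anti-CCR2 antibody MC-21 (3 mice, numbered 2 to 4), which removes Ly6Chi monocytes, so that both groups carry the liver injury and differ in the antibody. Neutrophils were gated as Ly6G+CD11b+Ly6Clo cells, and 1 3′ RNA-seq library was made per mouse. The values are RPKM, read counts divided by transcript length and by the number of mapped reads.

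MS4A genes encode small proteins that span the membrane several times and lie in a cluster on mouse chromosome 19. The family includes CD20 (Ms4a1) of B cells and the β chain of the high-affinity IgE receptor (Ms4a2) of mast cells, while the members examined here are known mainly from monocytes and macrophages. MS4A proteins associate with immune receptors in the membrane, among them Dectin-1 (Clec7a) and KIT.

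On mm9, the 5 members lay within 284 kb of chromosome 19. Ms4a7 (chr19:11395529-11410636, minus strand) came first, followed by Ms4a4c (chr19:11479260-11501736, plus strand), Ms4a6c (chr19:11543858-11556687, plus), Ms4a6b (chr19:11591002-11605746, plus) and Ms4a6d (chr19:11661094-11679339, minus). Ms4a6b, Ms4a6c and Ms4a6d were the members most alike in coding sequence. Their longest coding sequences were 86.3% identical between Ms4a6b and Ms4a6c, 81.8% between Ms4a6b and Ms4a6d and 79.7% between Ms4a6c and Ms4a6d. Of the 50-base words in annotated transcripts, 109 were shared by Ms4a6b and Ms4a6c, 40 by Ms4a6b and Ms4a6d and 0 by Ms4a6c and Ms4a6d. The words shared with Ms4a6b were 6.06% of those of Ms4a6c and 2.69% of those of Ms4a6d. The handling of reads with several matches is not given in the sources used here. Ms4a4c shared 89 of 1795 words with Ms4a4b or Ms4a4d, and Ms4a7 shared 0 with any gene.

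The likeness extended to the promoters. Those of Ms4a6b and Ms4a6c are shown because they are the closest pair among the members with a promoter sequence here, which leaves out Ms4a6d. The transcripts had different test outcomes, but a difference between them in their change was not shown. These promoters run from 250 bases before to 50 after the RefSeq start on GRCm38.p6, at chr19:11518309-11518608 and chr19:11469118-11469417, plus strand. Capitals mark the longest stretch that both hold, of 48 bases.
Ms4a6b: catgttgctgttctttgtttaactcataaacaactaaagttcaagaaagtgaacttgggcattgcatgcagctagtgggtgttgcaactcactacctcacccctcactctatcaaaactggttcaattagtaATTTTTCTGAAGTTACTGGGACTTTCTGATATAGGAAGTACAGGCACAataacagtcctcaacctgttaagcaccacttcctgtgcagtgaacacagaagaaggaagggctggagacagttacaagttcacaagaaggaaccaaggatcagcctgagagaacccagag
Ms4a6c: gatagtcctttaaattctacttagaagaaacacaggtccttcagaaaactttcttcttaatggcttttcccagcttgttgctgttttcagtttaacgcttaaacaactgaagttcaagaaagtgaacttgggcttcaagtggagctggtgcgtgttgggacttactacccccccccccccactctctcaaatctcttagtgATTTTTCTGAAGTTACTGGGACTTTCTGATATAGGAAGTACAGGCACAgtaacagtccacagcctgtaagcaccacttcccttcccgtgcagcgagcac

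A local alignment of the pair had 193 identical bases in 234 columns (82.5%). The shared stretch lay at positions -118 to -71 of Ms4a6b and -49 to -2 of Ms4a6c, counted from the start. RefSeq gave 6 promoters, 1 each for Ms4a4a, Ms4a4c, Ms4a6b and Ms4a6c and 2 for Ms4a7; that of Ms4a6d was not analysed here. Searched on both strands, the interferon-stimulated response element (GAAA, any 2 bases, GAAA) was in 0 of the 6 (3.44% of 32851 mouse promoters), the PU.1 site GAGGAAGT in 0 (3.20%) and the STAT site TTCNNNGAA in 0 (8.30%). The shorter ETS core AGGAAGT, which lies within the PU.1 letters, was chosen after these promoters had been read. It was in 2 of the 6 and in 9.35% of all promoters. Ms4a6b and Ms4a6c both held it within the shared stretch, so the 2 are not independent and no excess is read from them. Ms4a6b held it again outside that stretch, on the minus strand, where Ms4a6c did not. No match says only that these letters are not in this window.

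The depth of a library was read from the steps between low RPKM values. In a transcript of 1 kb, 1 RPKM stood for 1.59 to 3.96 reads, with the fewest in MC-21 mouse 3. Differences are MC-21 minus PBS on log2(RPKM + 1), which understates the change of low genes, for the 9594 genes whose mean over the libraries reached 1 RPKM. They were tested with limma, with Benjamini-Hochberg adjustment over all of these genes. Exact permutation tests over all 35 assignments of the mice are two-sided and cannot give a p below 0.0286. Mice were the replicates.

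In PBS neutrophils, Ms4a6c was the most abundant member per length, at 9.86 ± 1.55 RPKM (SD, n = 4), and stood above the other members in 4 of 4 libraries. Ms4a6d followed at 3.596 ± 2.21, Ms4a7 at 2.93 ± 2.10, Ms4a6b at 2.32 ± 1.49 and Ms4a4c at 1.97 ± 0.696 RPKM. The lowest Ms4a6c value, 7.94 RPKM, was above the highest value of any other member, 5.69 RPKM for Ms4a6d. The ranges of the other 4 overlapped, and their order does not exceed the spread between mice. This order depends on the division by length, and the separation of Ms4a6c is stated for RPKM only. The longest transcripts of Ms4a6b and Ms4a6c have 4286 and 1844 bases. With RPKM multiplied by that length in kb, Ms4a6b ranked 2, at a PBS mean of 9.93 against 18.2 for Ms4a6c, which still ranked 1. By mean level, Ms4a6c was at the 73.3rd percentile of all genes in the table and the others between the 47.9th and 57.1st.

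Ms4a6c, which marks monocytes, was lower in MC-21 neutrophils and passed the adjusted threshold. It was at 9.52, 10.4, 11.6 and 7.94 RPKM in PBS mice 5 to 8 and at 2.86, 1.84 and 1.75 RPKM in MC-21 mice 2 to 4. The groups did not overlap, and the transcript stayed above 0 in every MC-21 library. No step of 1 read was found in its values. If reads fell on its longest transcript of 1844 bases, MC-21 mice 2 to 4 would hold about 18.9, 5.39 and 8.99 reads. The MC-21 mean of 2.15 ± 0.619 RPKM (SD, n = 3) was 21.8% of the PBS mean. The difference was -1.79 on the log2 scale (SE 0.20, 95% interval -2.25 to -1.33), with an adjusted p of 0.00851 by limma and an exact permutation p of 0.0286. Among the 41 genes called lower (0.427% of those tested), it had the 12th largest fall. Without the filter on low values the adjusted p was 0.0761, and in a gene-by-gene test without limma's shared spread it was 0.0813, so that the call was lost under both.

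Ms4a4c, a paralog known to be induced by interferon, was at or near 0 in MC-21 neutrophils, but the difference did not pass the adjusted threshold. It was at 2.10, 1.92, 1.09 and 2.78 RPKM in PBS mice 5 to 8, at 0 in MC-21 mouse 2, and at 0.365 and 0.209 RPKM in MC-21 mice 3 and 4. The groups did not overlap. Its values fell on whole multiples of 1 read in its 1723-base transcript, equal to 10, 11, 5 and 19 reads in the PBS libraries and 0, 1 and 1 in the MC-21 libraries. With 45 reads against 2, the depth-scaled ratio of PBS to MC-21 was 14.1 (95% interval 3.67 to 120, counting error only). In the library at 0, a floor of 3 reads allows up to 0.487 RPKM. The log2 difference was -1.30 (SE 0.26, 95% interval -1.88 to -0.72), with an unadjusted p of 0.000586, an adjusted p of 0.0654 by limma and an exact permutation p of 0.0286. With a pseudocount of 0.1 the difference was -3.02. Ms4a4c and Ms4a6b, whose MC-21 means were 0.191 and 0.635 RPKM, passed the filter on low values through the PBS libraries.

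Ms4a6d, Ms4a6b and Ms4a7 had lower means in MC-21 neutrophils, with overlapping groups and no call. Ms4a6d was at 2.37, 5.69, 5.21 and 1.10 RPKM in PBS mice 5 to 8 and at 3.06, 0 and 1.31 RPKM in MC-21 mice 2 to 4. MC-21 mouse 2 thus lay above PBS mice 5 and 8. These values were 9, 26, 19 and 6 reads against 15, 0 and 5, if the 1371-base step found in the values is 1 read (the nearest annotated transcript has 1418 bases). The depth-scaled ratio of PBS to MC-21 reads was 1.87 (95% interval 1.11 to 3.28, counting error only), and the log2 difference was -0.97 (SE 0.52, adjusted p = 0.431 by limma, exact permutation p = 0.229). Without MC-21 mouse 3 it was -0.44, and with a pseudocount of 0.1 it was -2.02. In MC-21 mouse 3, the library at 0, a floor of 3 reads allows up to 1.37 RPKM. That is above the 1.10 RPKM of PBS mouse 8.

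Ms4a6b, the member most like Ms4a6c in coding sequence, was at 0.857, 3.21, 3.93 and 1.27 RPKM in PBS mice 5 to 8. It was at 1.16, 0.745 and 0 RPKM in MC-21 mice 2 to 4. PBS mice 6 and 7 were high, while PBS mouse 5 lay below MC-21 mouse 2. The log2 difference was -0.97 (SE 0.40, adjusted p = 0.315 by limma, exact permutation p = 0.143), and -2.11 with a pseudocount of 0.1.

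Ms4a7, found mainly in mature macrophages, was at 0.843, 5.60, 1.75 and 3.53 RPKM in PBS mice 5 to 8 and at 1.96, 1.46 and 0 RPKM in MC-21 mice 2 to 4. PBS mouse 5 lay below MC-21 mice 2 and 3. The log2 difference was -0.86 (SE 0.49, adjusted p = 0.458 by limma, exact permutation p = 0.229). It was -0.38 without MC-21 mouse 4, -0.55 without PBS mouse 6 and -1.84 with a pseudocount of 0.1. Its steps matched no annotated transcript, so no read number is given.

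**Figure D1:**
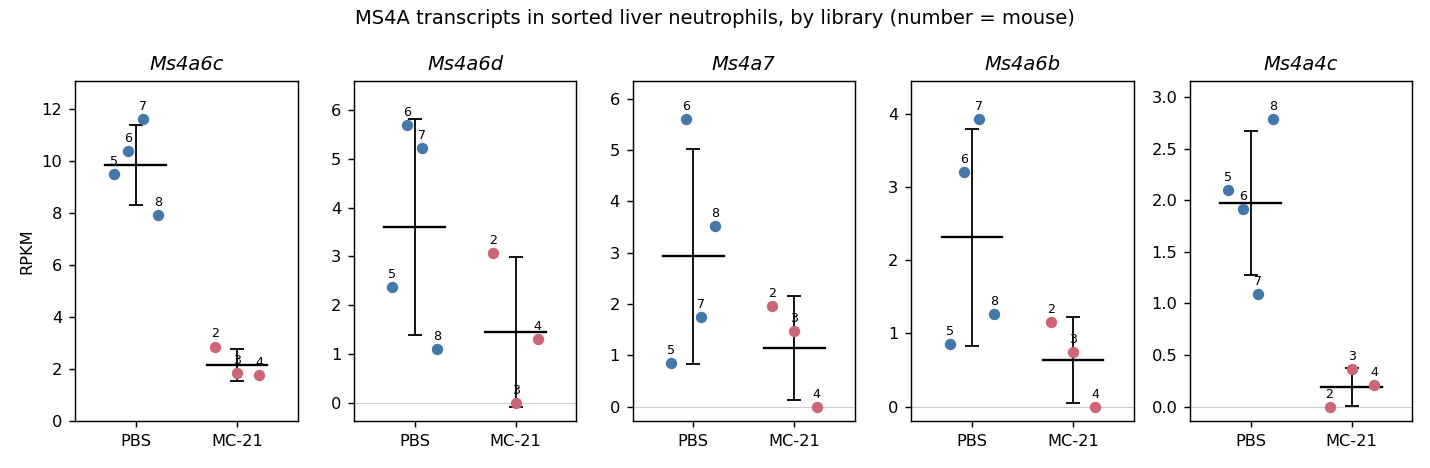
RPKM of each member in PBS (blue) and MC-21 (red) neutrophils, with 1 point per mouse, its number above it, and the mean with SD in black; each panel has its own axis. Ms4a6c and Ms4a4c do not overlap between the groups, and the other 3 do.

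Of the 5 members, 5 had a negative difference, 3 had an unadjusted p under 0.05, against 11.2% of all genes tested that were lower at that p, and 1 was called, against 0.427%. The groups did not overlap for 2 members, against 10.2% of all genes. By a looser rule, a change of 2-fold or more with an unadjusted p under 0.05, 2 members were called, against 1.68%. The median difference of the members was -0.97, beside -0.15 over all genes, of which 69.4% were lower. These counts describe 5 genes and support nothing further, since Ms4a4c and Ms4a6b passed the filter through the group in which they are high. The summed level of the members was 15.7 to 26.8 RPKM in PBS and 3.27 to 9.05 RPKM in MC-21 neutrophils, and Ms4a6c made up 38.7% to 60.7% and 31.7% to 53.5% of it.

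The other members were compared with Ms4a6c within each library. Ms4a6b was at 9.01%, 30.9%, 33.8% and 16.0% of the Ms4a6c level in PBS mice 5 to 8, and at 40.5%, 40.5% and 0% in MC-21 mice 2 to 4. Ms4a6d was at 13.9% to 54.8% in PBS and at 107%, 0% and 74.8% in MC-21 neutrophils. Ms4a7 was at 8.86% to 53.9% in PBS and at 68.3%, 79.7% and 0% in MC-21 neutrophils, and Ms4a4c at 9.39% to 35.1% and at 0%, 19.8% and 11.9%. The groups overlapped for all 4. On the log2(RPKM + 1) scale the ratio to Ms4a6c was higher in MC-21 neutrophils by 0.82 for Ms4a6b (adjusted p = 0.0298 by limma), 0.82 for Ms4a6d (0.0463) and 0.94 for Ms4a7 (0.0320), and by 0.49 for Ms4a4c (0.188). The exact permutation p lay between 0.171 and 0.229. This ratio was called higher for 98.4% of all genes, so that nothing particular to the members is read from these calls. With a pseudocount of 0.1 the ratios were 0.06, 0.15, 0.33 and -0.86, and none was called. A difference between the members in their change was not shown.

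**Figure D2:**
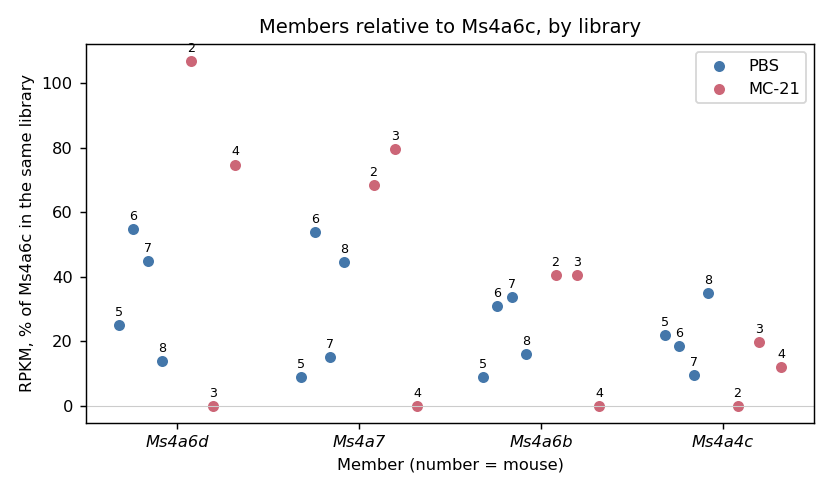
Level of the other 4 members as a percent of Ms4a6c in the same library, in PBS (blue) and MC-21 (red) neutrophils, with the mouse number above each point. The groups overlap for every member, and MC-21 mouse 2 has the highest Ms4a6d value, 107%.

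Over the 7 libraries, log2(RPKM + 1) of Ms4a6c had a Pearson's r of 0.83 with Ms4a4c, 0.77 with Ms4a6b, 0.68 with Ms4a6d and 0.56 with Ms4a7, and the lowest r among the members was 0.24, between Ms4a4c and Ms4a6d. Outside the family, the genes most like Ms4a6c were C1qb (r = 0.986), a chain of complement C1q, Narfl (0.982), Paqr7 (0.978), the MHC class II chain H2-Ab1 (0.977) and Slc46a1 (0.977). Of these, C1qb, Paqr7 and H2-Ab1 were called lower. Paqr7, whose MC-21 mean was 0.716 RPKM, passed the filter on low values through the PBS libraries. The gene most like Ms4a4c was Slc26a10 (0.999), that most like Ms4a6b was Pilra (0.982), an inhibitory receptor of myeloid cells, that most like Ms4a6d was Fam133b (0.996) and that most like Ms4a7 was Fmo5 (0.986). These values describe 7 libraries of 2 groups, picked from 9594 genes, and carry no test.

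Of 16 other genes of the family and its relatives, 8 were in the table, 3 passed the filter on low values and 0 were called by limma or at an unadjusted p under 0.05. Tmem176a and Tmem176b, MS4A-like membrane proteins of myeloid and dendritic cells, were far more abundant than the members. Tmem176b was at 95.1 ± 10.2 RPKM (SD, n = 4) in PBS and 79.3 ± 19.6 RPKM (n = 3) in MC-21 neutrophils, a log2 difference of -0.28 (95% interval -0.70 to 0.13, adjusted p = 0.511 by limma). Tmem176a was at 59.9 ± 15.7 and 52.2 ± 17.5 RPKM (-0.22, adjusted p = 0.740 by limma). Ms4a8a had a difference of 0.14 (adjusted p = 0.906 by limma). Ms4a4b, a T cell member that neighbours Ms4a6c, was at 0.201 to 1.44 RPKM in PBS and 0 to 0.999 RPKM in MC-21 neutrophils. The defining genes of other cells were at or near 0: Ms4a1 reached at most 0.292 RPKM, Ms4a2 0.223 RPKM, and Ms4a3, a gene of granulocyte and monocyte progenitors, 0.356 RPKM, while Ms4a10 was listed at 0 in every library.

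The list of reported partners of MS4A proteins had 7 genes, of which 6 were tested and 1 was called lower, against 0.427% of all genes. Trem2, a lipid-sensing receptor of macrophages, was at 10.7, 21.2, 27.6 and 18.7 RPKM in PBS mice 5 to 8 and at 3.18, 1.64 and 1.26 RPKM in MC-21 mice 2 to 4. The groups did not overlap, and the log2 difference was -2.74 (SE 0.32, adjusted p = 0.00853 by limma). The call was lost without the filter on low values (adjusted p = 0.0863), in the gene-by-gene test (0.150) and without PBS mouse 8 (0.0595). Its adaptor Tyrobp, which neutrophils also express, was at 5085 ± 1088 RPKM (SD, n = 4) and 6145 ± 514 RPKM (n = 3), a difference of 0.30 (adjusted p = 0.469 by limma). Clec7a ranged from 11.4 to 53.2 RPKM in PBS and from 22.6 to 63.9 RPKM in MC-21 neutrophils (0.39, adjusted p = 0.776 by limma). Fcer1g (0.01), Kit (-0.37) and Tnfrsf18 (0.66), the costimulatory receptor GITR, were not called, and Fcer1a reached at most 0.273 RPKM.

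**Figure D3:**
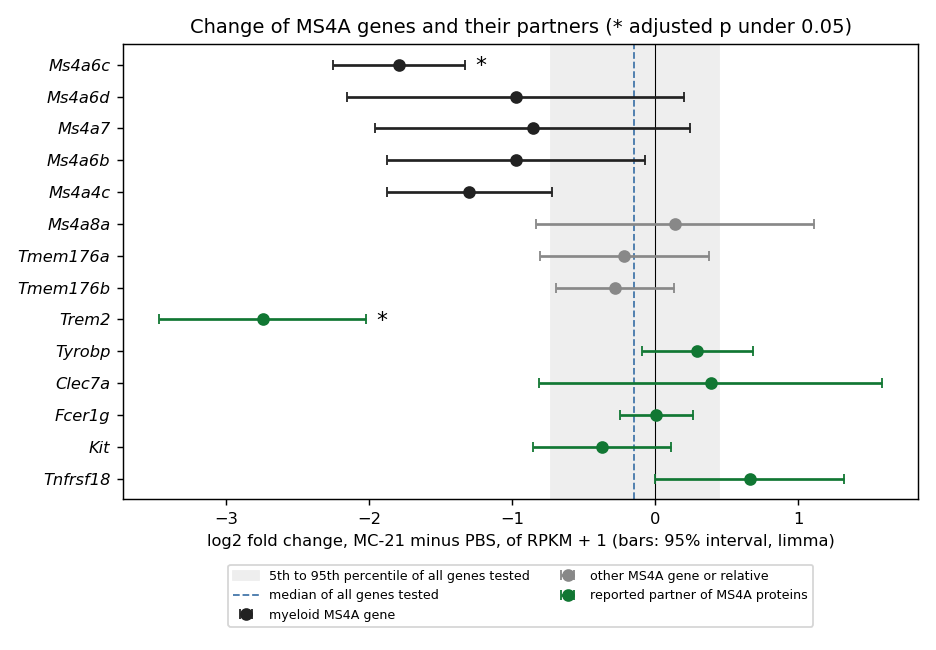
Log2 fold change of RPKM + 1, MC-21 minus PBS, with 95% intervals from limma, for the members (black), other MS4A genes and relatives (grey) and reported partners (green), beside the median (dashed) and the 5th to 95th percentile (shaded) of all genes tested. Ms4a6c and Trem2 carry an asterisk for an adjusted p under 0.05.

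Some genes of monocytes and macrophages were also lower in the MC-21 libraries. Of 18 such markers, 17 were tested and 6 were called lower (0.427% of all genes), 9 were lower and 2 higher without a call, and the median difference was -0.999. The 2 with a positive difference were Cd14 (1.11, adjusted p = 0.0739 by limma), whose groups did not overlap, and Adgre1 (0.02). Ccr2, the receptor that MC-21 binds, was at 1.91, 3.26, 2.30 and 2.18 RPKM in PBS mice 5 to 8 and at 0.390, 0 and 0.200 RPKM in MC-21 mice 2 to 4 (-1.51, adjusted p = 0.0263 by limma). The MC-21 mean was 8.15% of the PBS mean for Ccr2, 9.70% for F13a1, 12.9% for the Fc receptor Fcgr1 and 38.5% for C1qb, beside 21.8% for Ms4a6c and 9.69% for Ms4a4c. The 6 markers called were Ccr2, F13a1, Fcgr1, C1qa, C1qb and C1qc. Ccr2 and F13a1, whose MC-21 means were 0.197 and 0.310 RPKM, passed the filter on low values through the PBS libraries. The count of calls describes these markers and supports nothing further. Ly6c2 was at 82.5% and Csf1r at 65.4% of the PBS mean, and neither was called.

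The summed markers of macrophages were at 1784 to 2167 RPKM in PBS and 1027 to 1498 RPKM in MC-21 neutrophils. Most of that sum was Apoe, at 1216 to 1674 RPKM and 803 to 1202 RPKM. Of the 10 macrophage markers, 0 were at 0 in every library. The monocyte markers summed to 541 to 1038 RPKM in PBS and 1199 to 1531 RPKM in MC-21 neutrophils. Most of that sum was Cd14, at 391 to 800 RPKM and 1071 to 1430 RPKM, which neutrophils also express. Of the 8 neutrophil markers, 0 were called and 2 had a negative difference, with a median of 0.47. S100a8 (0.83), Retnlg (0.83) and S100a9 (0.46) were higher at an unadjusted p under 0.05 by limma, with overlapping groups. Their exact permutation p was 0.0571, 0.114 and 0.114. S100a9 was between 12275 and 25041 RPKM. The part of other cells in the fall of Ms4a6c was not tested. In bulk libraries, fewer cells of a type and less RNA per cell cannot be told apart.

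**Figure D4:**
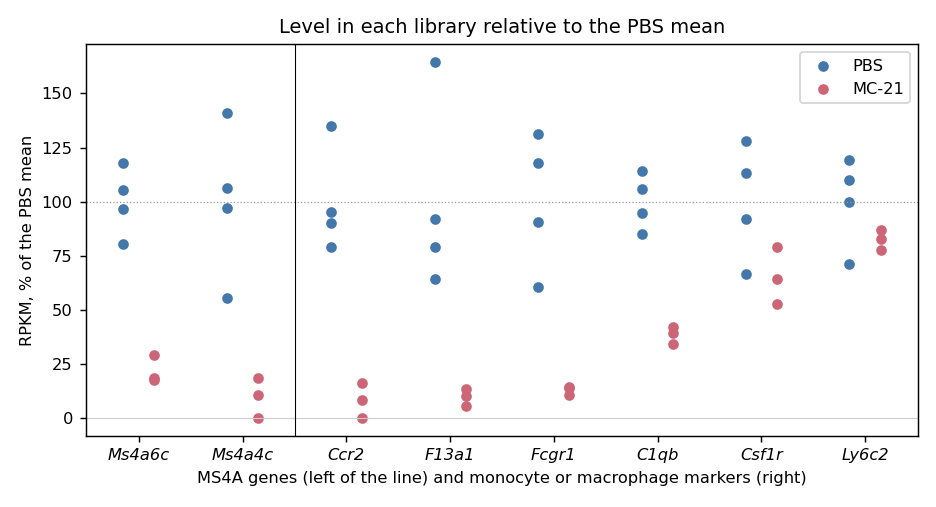
RPKM in each library as a percent of the PBS mean, for Ms4a6c and Ms4a4c and for a selection of monocyte and macrophage markers, in PBS (blue) and MC-21 (red) neutrophils. The markers shown all had lower means in MC-21 neutrophils. Cd14 and Adgre1, the tested markers with a positive difference, are not shown. Every MC-21 library is below every PBS library for Ms4a6c, Ms4a4c, Ccr2, F13a1, Fcgr1 and C1qb, whereas the groups overlap for Csf1r and Ly6c2.

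The remaining lists of cell types had no call at an adjusted p under 0.05 by limma. The median difference was -0.51 for the 3 Kupffer cell markers tested, -0.78 for 3 of B cells, -0.55 for 3 of T and NK cells, 0.02 for 2 of dendritic cells and -0.01 for 2 of mast cells and basophils. At an unadjusted p under 0.05, 2 were lower among those of Kupffer cells, 2 among those of B cells and 2 among those of T and NK cells, where 11.2% of all genes were.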

How the data were processed

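The 3′ RNA-seq reads of 7 libraries were mapped by the authors to mm9 with HISAT 0.1.5 and SAMtools, and the authors deposited RPKM values per gene from Partek Genomics Suite 6.6. The annotation behind the RPKM and the handling of reads with several matches are not given in the sources used here. The members and lists were chosen with earlier results of these data known. Differences were computed on log2(RPKM + 1) for genes whose mean reached 1 RPKM, with limma 3.58.1 (lmFit, eBayes with a trend) in R 4.3.3 and Benjamini-Hochberg adjustment over 9594 genes. Exact permutation tests used scipy 1.17.1. On simulated data for 9594 genes, 176 of 200 genes changed by -2 on the log2 scale were recovered (88%), and 12 unchanged genes were called. Every member changed by less than that, so the 88% does not give the recovery of changes of their size.

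Depth came from the ratios of low RPKM values between libraries and from 768 genes with 1 annotated transcript, of which 380 (49.5%) lay within 1% of the most frequent depth. Gene steps were accepted within 0.03 reads of a whole number up to 30 reads, and matched to a transcript length within 5%. Intervals on reads cover counting error only, and PCR reads are not independent molecules. Coordinates and transcripts are from GENCODE on the same build as mm9, and promoters from RefSeq on GRCm38.p6. Alignments used Biopython 1.88. The genes named are the members, the rest of the family list, the partner list, the 5 genes most like each member, of which the report gives all for Ms4a6c and the closest for the others, and markers of reported lists. Alternatives were another pseudocount, other filters, scalings and tests, and leaving out each library. The files held no other columns of samples.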

Additional observations from a re-analysis of the deposited data

Results flagged for a closer look

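Among 25 values tested in the 4 PBS libraries with Dixon's ratio, 3 had a library far from the others, where chance alone gives about 1 in 20. Ms4a1 was at 0.292 RPKM in PBS mouse 6 and at 0 in the other 3; that value is 1 step, the smallest its values show, and with the others at 0 the ratio is 1 whatever its size. The summed B cell markers, which include Ms4a1, were at 30.1 RPKM in the same mouse, against 11.2 to 14.2 RPKM in the others. The summed macrophage markers were at 1784 RPKM in PBS mouse 7, against 2118 to 2167 RPKM in the others, while Ms4a6c was highest in that mouse, at 11.6 RPKM. Most of that sum was Apoe, at 1216 RPKM in PBS mouse 7 and 1531 to 1674 RPKM in the others. No member was among the 3 values.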

How the results depend on the processing

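Of 341 alternative values for 28 results, 270 kept their direction and side of the threshold or stayed close to the reported value. Ms4a6c had a log2 difference between -2.17 and -1.62 and stayed called without each library in turn; it was -1.79 and not called with no filter on low values (adjusted p = 0.0761) and with a t-test (0.0813). Ms4a4c, at -1.30, was called with an unadjusted p and a 2-fold change. The number of members called was 0 with no filter, 0 with a t-test and 2 with the unadjusted p; that of all genes, 60, became 4, 4 and 259, and 9 to 102 without 1 library. The lowest count was without PBS mouse 8 and the highest without PBS mouse 6.

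With a pseudocount of 0.1 the ratio to Ms4a6c became -0.86 for Ms4a4c, 0.057 for Ms4a6b, 0.15 for Ms4a6d and 0.33 for Ms4a7. Without 1 library it was 0.59 to 1.05 for Ms4a6b, 0.50 to 1.29 for Ms4a6d and 0.64 to 1.32 for Ms4a7, and each lost its call without some of the libraries. Differences that changed sign without 1 library were those of Ms4a8a (-0.14 to 0.63), Tmem176a (-0.45 to 0.044), Clec7a (-0.086 to 0.75) and Fcer1g (-0.030 to 0.053, and -0.025 with quantile normalization). The cause was not tested. By RPKM multiplied by transcript length, Ms4a6b ranked 2, Ms4a6d 3 and Ms4a7 4. Without 1 PBS library the rank of Ms4a4c was 4 to 5, of Ms4a6b 4 to 5, of Ms4a6d 2 to 3 and of Ms4a7 2 to 3, and Ms4a6c ranked 1 throughout.

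A mean of at least 5 RPKM left Ms4a6c as the only member tested. Without 1 library the difference was -1.46 to -1.17 for Ms4a4c, -1.21 to -0.66 for Ms4a6b, -1.45 to -0.44 for Ms4a6d and -1.17 to -0.38 for Ms4a7. Members near 1 RPKM rest on few reads. No paired analysis was possible because the groups share no mouse numbers.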
